A study of Caenorhabditis elegans with 20 samples.

Results

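Glutathione S-transferases join glutathione to reactive compounds, which makes the products more soluble and marks them for export from the cell. Caenorhabditis elegans, a nematode used as a laboratory animal, carries a large family of genes for these enzymes, many of them in tandem on the chromosomes. Several are known to respond to oxidants and to foreign compounds through SKN-1, the worm's Nrf-type transcription factor, and through nuclear hormone receptors, the family to which nhr-131 belongs.

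The genes described here are the 40 genes of the count table whose names start with gst-, other than gst-5, gst-6, gst-7 and gst-8. They are 40 of 44 gst genes and of 28301 genes in the table. RNA was counted per gene in whole L4 larvae, the last larval stage, which had grown in liquid culture from synchronized L1 larvae. There were 4 groups of 5 libraries each, labelled as independent biological replicates: DMSO-treated wild type, F17-treated wild type, DMSO-treated nhr-131 mutants and F17-treated nhr-131 mutants. F17, a compound known here by its code alone, was given at 2.5 µM, and the solvent DMSO at 0.1%, for the last 4 h before harvest. The allele of the nhr-131 strain, and whether 1 or several strains were used, is not given in the sources used here. The columns of the table carry a group and a letter from a to e, and each library is named by both. The wild-type columns are named N2, which is the wild-type strain.

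The nhr-131 counts fitted the labels. The gene had 116 to 196 counts per library in DMSO-treated wild type, 77 to 172 in F17-treated wild type and 0 to 4 in either mutant group. Total counts per library ran from 12836432 to 26908383, and ribosomal RNA genes took 2.24% to 27.5% of them. Markers of intestine, body wall muscle, pharynx, neurons, hypodermis and germline were all above 1 CPM (counts divided by the scaled library size and put on a common total) in every library. Within groups, 6 libraries stood apart from the others in their overall expression: libraries a and c (wild type, DMSO), a and d (wild type, F17) and the 2 libraries c of the nhr-131 mutants, DMSO-treated and F17-treated. Their developmental-age score, which averages the standardized levels of 15 genes that mark the passage from L4 to adult, ran from -1.38 to -0.67, against -0.43 to 1.03 in the other 14. The score's group means were -0.31 ± 0.55 with DMSO and -0.017 ± 0.69 with F17 in wild type (SD, n = 5). In nhr-131 they were -0.09 ± 0.87 and 0.41 ± 0.85. The mean was thus higher with F17 in both genotypes, so taking the score as covariate also shifts the F17 effects themselves. In whole animals, fewer cells of a type and less RNA per cell cannot be told apart, which holds for every level below.

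The 40 genes have coding lengths of 522 to 762 bases in the Ensembl annotation of assembly WBcel235, and all 40 matched the RefSeq gene table of that assembly by name. Of these, 21 lie on chromosome II, 9 on V, 4 on IV, 3 on X, 2 on I and 1 on III. Counting neighbours with at most 1 other coding gene between them, 21 members fall into 3 clusters. On chromosome II, 9 genes including gst-20, gst-24, gst-12 and gst-19 form 1 cluster, and 9 including gst-26, gst-27, gst-28 and gst-29 form another. The third holds gst-3, gst-2 and gst-4 on chromosome IV. Reads that fit several near-identical members may be split or lost in counting, so the levels of clustered genes are uncertain to that extent. The exons of gst-4 overlap those of dhs-12 on the same strand, and those of gst-17 and gst-18 overlap each other on the same strand. Exons of gst-44 overlap srd-63 on the other strand, and those of gst-2, gst-22, gst-32, gst-36 and gst-40 also overlap a gene there.

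Levels differed widely across the 40 genes. The mean over 20 libraries, in CPM per kb of coding length, was 185 for gst-27, 137 for gst-26, 134 for gst-42 (a zeta-class enzyme, maleylacetoacetate isomerase of tyrosine breakdown), 105 for gst-13 and 84.2 for gst-10, which conjugates the lipid peroxidation product 4-hydroxynonenal. It was 68.2 for gst-36, 57.6 for gst-4, a widely used reporter gene of SKN-1, and 51.7 for gst-20. These 8 genes held 81.3% of the summed level per kb of the 40 genes. At the low end of the 28 genes that passed the filter on low counts, gst-41 had 0.731, which made the ratio of highest to lowest 253. Of the 40 genes, 16 averaged under 1 CPM. A summed level of the 40 genes was 628 ± 219 CPM (SD, n = 5) in DMSO-treated and 519 ± 105 in F17-treated wild type, and 677 ± 190 in DMSO-treated and 727 ± 184 in F17-treated nhr-131 animals. The libraries' sums overlapped between every pair of groups. In the 6 libraries that stood apart the sum was 359 to 450 CPM, below the 503 to 916 CPM of the other 14.

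**Figure D1:**
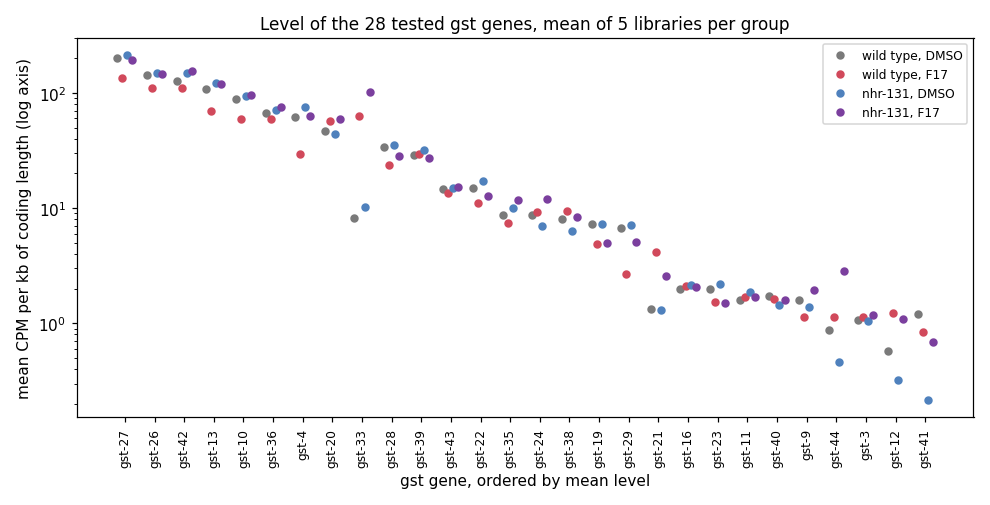
Mean level of the 28 tested gst genes in each of the 4 groups (5 libraries a group), in CPM per kb of coding length on a log axis, ordered by mean level. For gst-33 both F17 points lie well above both DMSO points, and gst-27 is the highest at 185 on average.

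Of the 28 tested members, only gst-33 on chromosome V was called by edgeR with F17, and it rose. In wild type with DMSO, its level was 5.02, 7.28, 2.48, 6.23 and 5.30 CPM in libraries a to e, and with F17 it was 45.1, 37.8, 42.6, 32.7 and 42.6. All 5 F17 libraries lay above all 5 DMSO libraries, the lowest of the former at 32.7 CPM and the highest of the latter at 7.28. The rise was 7.67-fold, a log2 fold change of 2.94 (SE 0.27, 95% interval 2.38 to 3.50, adjusted p = 6.04e-07 by edgeR's quasi-likelihood test with Benjamini-Hochberg adjustment). In wild type 0.768% of all 13795 tested genes were called higher and 0.159% were called lower, and of 28 members 1 was called higher (gst-33) and 0 lower, with 2 lower at an unadjusted p under 0.05. DESeq2 and limma-voom likewise called 1 higher and 0 lower. Its libraries did not overlap, as in 1.45% of all genes for which the F17 libraries were all above.

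gst-33 also rose in nhr-131. There its level was 10.6, 7.38, 3.92, 6.34 and 4.48 CPM with DMSO, and 70.5, 78.9, 56.5, 55.6 and 62.1 with F17. Again the 2 treatments did not overlap, with 10.6 as the highest DMSO value and 55.6 as the lowest F17 value. The log2 fold change was 3.31 (SE 0.27, interval 2.75 to 3.88, adjusted p = 1.86e-07 by edgeR), a rise of 9.95-fold. Of 28 members it was the 1 called higher, where 0.471% of all genes were, and 0 were called lower, where 0.00725% were. At an unadjusted p under 0.05, 0 members were lower in nhr-131, and DESeq2 and limma-voom called 0 lower. The mean effect over both genotypes was 3.13 (SE 0.19, adjusted p = 9.6e-10 by edgeR), with 0.863% of all genes called higher in that comparison. The call held in each of the 30 alternatives, at 2.70 to 3.08 in wild type and 3.17 to 3.55 in nhr-131. Without the 6 libraries that stood apart the values were 2.70 and 3.22.

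The difference of the F17 effect on gst-33 between genotypes was 0.37 (SE 0.36, interval -0.37 to 1.12, adjusted p = 1 by edgeR), so a larger effect in nhr-131 of up to 1.12, or a smaller one by 0.37, is within its interval. For gst-5 to gst-8 the same difference was -1.35 (adjusted p = 0.0108), -1.06 (0.328), -2.38 (0.0169) and -2.76 (1), in that order. The summed level of those 4 was 138 ± 30.2 CPM in DMSO-treated and 1138 ± 235 in F17-treated wild type, and 142 ± 42.3 and 313 ± 63.2 in nhr-131 animals so treated. Whether gst-33 differs from them in this difference was not tested. With F17, all 5 nhr-131 libraries of gst-33 (55.6 to 78.9 CPM) lay above all 5 wild-type libraries (32.7 to 45.1), and in 1.72% of all genes the 5 libraries of nhr-131 lay above those of wild type. The log2 fold change between genotypes with F17 was 0.69 (SE 0.25, interval 0.17 to 1.2), and it did not pass edgeR's test, at an adjusted p of 0.191. It passed in limma-voom (0.0432), with the 2 compared groups alone (0.0367) and without the 6 libraries (0.0322), but not with the age score as covariate (0.60, adjusted p = 0.177). With DMSO the libraries of the genotypes overlapped and the log2 fold change was 0.31 (SE 0.26, adjusted p = 0.985).

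**Figure D2:**
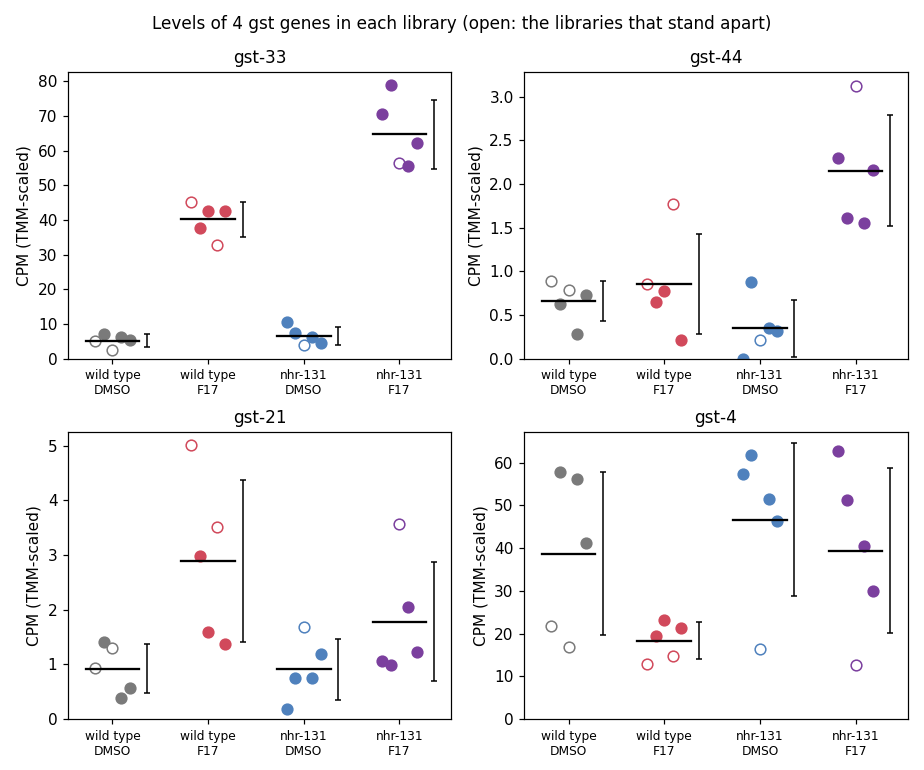
Level of gst-33, gst-44, gst-21 and gst-4 in each library, in CPM, by group; the horizontal line is the mean and the bar its SD (n = 5), and open circles are the 6 libraries that stood apart. gst-33 with F17 lies between 32.7 and 78.9 CPM in all 10 libraries and at 10.6 CPM or less in all 10 with DMSO.

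gst-44, on chromosome V, had few counts. In wild type it had 17, 8, 20, 6 and 13 counts in libraries a to e with DMSO, and 11, 12, 19, 42 and 4 with F17. In nhr-131 it had 0, 13, 5, 9 and 4 counts with DMSO, and 39, 44, 64, 32 and 37 with F17. In nhr-131 every F17 library was above every DMSO library, and in wild type the treatments overlapped. The mean level was 0.664 ± 0.232 and 0.856 ± 0.571 CPM in wild type, and 0.352 ± 0.326 and 2.15 ± 0.635 in nhr-131, each pair in the order DMSO, F17. The F17 effect in nhr-131 was 2.57 (SE 0.59, interval 1.33 to 3.81), and it did not pass edgeR's test, at an adjusted p of 0.0697. It passed with the age score as covariate (2.72, adjusted p = 0.0186), in limma-voom (2.87, 0.0278), in DESeq2 (2.60, 0.00025), and with library d (0.0466) or e (0.0415) of wild type with F17, or library b of nhr-131 with DMSO (0.0164), left out. Without the 6 libraries it was 2.22 (adjusted p = 0.137). The difference of effects between genotypes was 2.20 (SE 0.81, interval 0.51 to 3.89, unadjusted p = 0.0136), with an adjusted p of 1 by edgeR.

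In nhr-131, 4 members had all F17 libraries above all DMSO libraries: gst-20, gst-24, gst-33 and gst-44, where 0.703% of all genes did. gst-20 had 33.7, 23.4, 27.6, 22.2 and 28.6 CPM with DMSO and 35.1, 39.8, 37.1, 37.3 and 36 with F17. Its F17 libraries lay within a narrow range above the DMSO ones, but its log2 fold change of 0.45 (SE 0.19, interval 0.06 to 0.84) had an adjusted p of 1 by edgeR. gst-24 had 4.71, 4.47, 4.89, 4.21 and 3.54 CPM with DMSO and 7.41, 6.27, 11.5, 7.01 and 5.37 with F17. Its 0.78 (SE 0.29, adjusted p = 1) passed with the age score as covariate (0.97, adjusted p = 0.047) and not without the 6 libraries (0.62, 0.263). In wild type the treatments overlapped for both genes, at 0.27 for gst-20 and 0.09 for gst-24. gst-12, a low-count gene with at most 38 counts in a library, had 1.66 in nhr-131 (SE 0.71, adjusted p = 1) and 1.06 in wild type. The value in nhr-131 was 1.03 without library c of the F17-treated mutants and 0.92 without the 6 libraries. gst-12 reached the filter's cutoff in 1 DMSO and 3 F17 libraries of wild type, and in 0 and 3 of nhr-131. It thus passed the filter mostly through F17 libraries, which favours a positive effect among tested genes. The members' median F17 effect in nhr-131 was 0.05, against -0.009 over all genes.

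gst-4 had 21.7, 57.8, 16.7, 56.2 and 41.1 CPM in wild type with DMSO, and 13, 19.3, 23.2, 14.8 and 21.4 with F17. The 2 low DMSO libraries, a and c, are among the 6 that stood apart, and so are a and d with F17, its 2 lowest. Over all 5 libraries a group the treatments overlapped. The remaining libraries had 41.1 to 57.8 CPM with DMSO (b, d and e) and 19.3 to 23.2 with F17 (b, c and e). The 6 were chosen from the expression of these same libraries, and the share of all genes that separate so was not counted. The effect was -1.07 (SE 0.41, interval -1.94 to -0.21), and it did not pass edgeR's test, at an adjusted p of 0.493. It passed with the age score as covariate (-1.23, adjusted p = 0.019) and without the 6 libraries (-1.29, 0.00218). In nhr-131 gst-4 had 46.6 ± 17.9 CPM with DMSO and 39.4 ± 19.3 with F17, and the log2 fold change was -0.24 (SE 0.41, adjusted p = 1). With the age score as covariate it was -0.73 (adjusted p = 0.548). The difference of effects was 0.83 (SE 0.58, interval -0.37 to 2.04, adjusted p = 1), and it was 0.50 with the age score (adjusted p = 0.974) and 1.05 without the 6 libraries (0.0876). Between genotypes with F17, its log2 fold change was 1.10 (adjusted p = 0.212), against 0.64 with the age score (0.246) and 1.11 without the 6 libraries (0.00422). The exon overlap with dhs-12 applies to all its values.

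In wild type, 2 further members had an unadjusted p under 0.05. gst-21, on chromosome V, had 0.941, 1.41, 1.30, 0.380 and 0.564 CPM with DMSO and 5.01, 2.98, 1.58, 3.51 and 1.37 with F17, with 1 F17 library within the DMSO range. Its effect was 1.65 (SE 0.52, adjusted p = 0.274 by edgeR), which passed with the age score as covariate (1.79, adjusted p = 0.0341) and not without the 6 libraries (1.36, 0.163), and in nhr-131 it was 0.94 (SE 0.52, adjusted p = 1). gst-28 had 21 ± 3.35 CPM with DMSO and 14.9 ± 2.78 with F17, and -0.50 (SE 0.19, adjusted p = 0.473 by edgeR; with the age score -0.53, adjusted p = 0.169; without the 6 libraries -0.75, adjusted p = 0.0178). In all, 4 of 28 members had an unadjusted p under 0.05 in wild type, where 7.6% of all genes did, and 5 in nhr-131, where 3.07% did. The 5 include gst-12, which passed the filter mostly through F17 libraries.

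**Figure D3:**
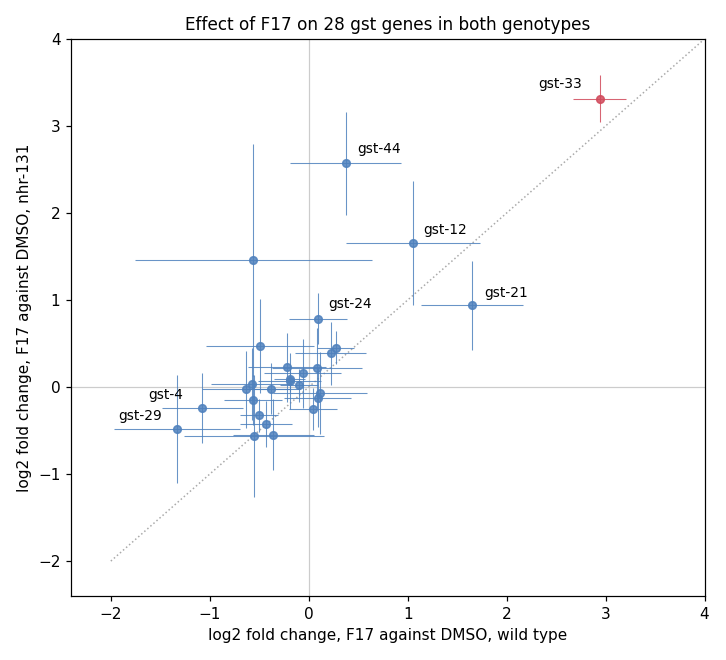
F17 effect on the 28 tested gst genes in wild type (horizontal) and nhr-131 (vertical), as log2 fold change; bars are SE and the dotted line marks equal effects. gst-33 lies at 2.94 and 3.31, apart from the other 27 members, none of which passed the test.

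The other 27 tested members were not called in wild type, where their effects ran from -1.33 (gst-29) to 1.65 (gst-21). They were not called in nhr-131 either, where their effects ran from -0.56 (gst-19) to 2.57 (gst-44). gst-19, gst-29 and gst-41 were named after their values were seen. The effects of F17 in wild type had a median of -0.19 against -0.01 over all genes, and 11 of 28 were positive, against 48.3% of all genes. The most abundant members gave F17 effects in wild type of -0.56 for gst-27, -0.38 for gst-26, -0.19 for gst-42, -0.63 for gst-13, -0.58 for gst-10 and -0.19 for gst-36, with adjusted p from 0.718 (gst-27) upward. In nhr-131 the same genes gave -0.15, -0.02, 0.07, -0.03, 0.03 and 0.10. With the age score as covariate these became -0.44 for gst-27, -0.32 for gst-26, -0.33 for gst-42, -0.59 for gst-13, -0.47 for gst-10 and -0.07 for gst-36, and 0 of the 6 was called, with adjusted p from 0.615 upward. Within the cluster of gst-26 to gst-29 on chromosome II the effects ran from -1.33 to 0.04 in wild type and from -0.48 to 0.23 in nhr-131, and within that of gst-20 from -0.55 to 1.06 and from -0.56 to 1.66.

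No member was called in the difference of effects, where 0.246% of all genes were, nor between genotypes with DMSO (0.029%), nor with F17 (1.28%), by edgeR. At an unadjusted p under 0.05 there were 1 (gst-44), 0 and 4 (gst-4, gst-33, gst-36 and gst-44) of 28, against 3.2%, 4.17% and 15% of all genes. Other tools called 0 in the difference and with DMSO, and with F17 limma-voom called 1, gst-33. The mean effect over both genotypes had 9 of 28 at an unadjusted p under 0.05, with 6.31% of all genes: gst-12, gst-20, gst-21, gst-24, gst-33 and gst-44 with positive and gst-4, gst-22 and gst-28 with negative values. For gst-22 it was -0.43 (SE 0.19, adjusted p = 0.729). Of these 9, gst-12 passed the filter mostly through F17 libraries. The median genotype difference of the members was 0.07 with DMSO and 0.22 with F17, against -0.005 and -0.03 over all genes.

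The libraries of a group differed among themselves in the gst genes. The SD of log2 CPM within a group had a median of 0.574 over tested members and 0.445 over all tested genes. The 6 libraries that stood apart differed from the others of their groups by -2.43 (gst-19) to 2.81 (gst-41), on the log2 CPM scale. Of 28 members, 15 were lower in these libraries in all 4 groups, and 5 were higher: gst-20, gst-21, gst-24, gst-38 and gst-41. Over all tested genes, 28.7% were lower in all 4 and 31.1% higher. gst-41 reached the filter's cutoff in 2 libraries of each wild-type group and 1 of each nhr-131 group. It was thus tested only through libraries where it was high. It had 87.6% of its 193 counts in the 6 libraries, which made up 32.6% of the scaled library size. Since these libraries were chosen from the expression of all tested genes, this is a description with no test. All 6 tested members of the gst-26 cluster were lower in them on the mean over groups, by values from -2.02 to -0.35, while 3 of 5 tested in the gst-20 cluster were higher.

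**Figure D4:**
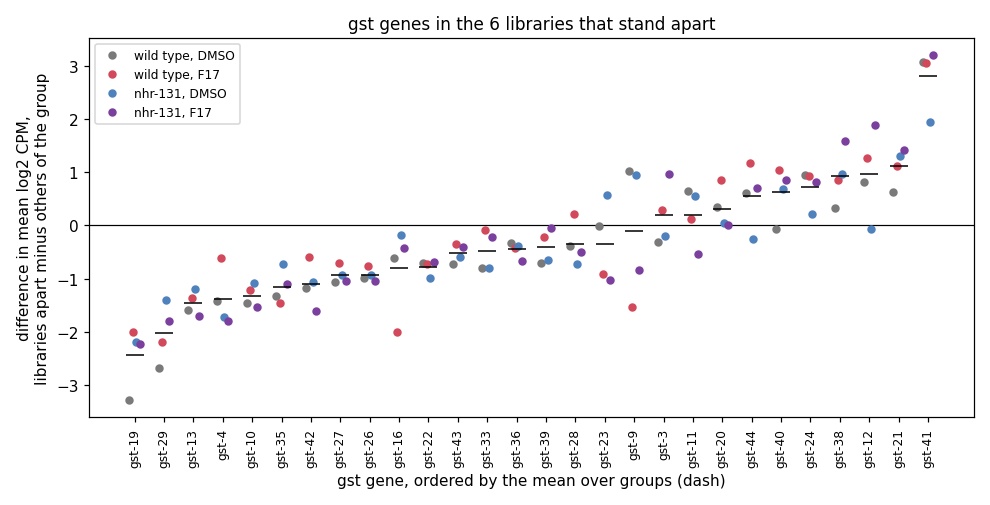
Difference in mean log2 CPM between the 6 libraries that stood apart and the others of each group, for the 28 tested gst genes ordered by the mean over the 4 groups (dash). Values run from -2.43 for gst-19 to 2.81 for gst-41, and 15 genes are below 0 in all 4 groups. gst-41 passed the filter only through libraries where it was high.

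Without those 6 libraries, 27 members were tested and 5 were called in wild type (18.5%, against 6.71% of all genes): gst-33 was higher, and gst-4, gst-27, gst-28 and gst-29 were lower with F17. gst-27 was at -0.67 (adjusted p = 0.015) and gst-29 at -1.39 (adjusted p = 0.00996) in that fit. The fit left out 2 of 5 libraries in each wild-type group and 1 of 5 in each nhr-131 group. They were chosen from these same expression values, and leaving them out can lower the spread within groups. Its adjusted p-values may therefore be too small. In nhr-131, 1 of 27 was called (gst-33), against 1.04% of all genes. Between genotypes with F17, gst-4, gst-20, gst-33 and gst-42 were called higher in nhr-131 (14.8%, against 7.55%), with gst-42 at 0.49 (adjusted p = 0.01). With the age score as covariate in all 20 libraries, 3 of 28 were called in wild type (gst-4, gst-21 and gst-33, 10.7% against 1.73% of all genes), 3 in nhr-131 (gst-24, gst-33 and gst-44, against 0.594%) and 5 for the mean effect (17.9% against 2.09%). The part that the libraries' age plays in these values was not tested.

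Genes that make, recycle or use glutathione, listed with earlier results of these data known, mostly did not pass the test. cth-1, a cystathionine gamma-lyase in the supply of cysteine for glutathione, fell with F17 in wild type, from 138 ± 25.5 to 74.4 ± 20.4 CPM. The DMSO libraries (107 to 158 CPM) all lay above those with F17 (48.3 to 99.7), as in 0.906% of all genes. The log2 fold change of cth-1 was -0.89 (SE 0.17, adjusted p = 0.00924 by edgeR), and the adjusted p was 0.125 with the 2 compared groups alone. In nhr-131 it went from 183 ± 30.4 to 115 ± 12.5 CPM, -0.67 (adjusted p = 0.182; without the 6 libraries 0.00345). There too the DMSO libraries (162 to 235 CPM) all lay above those with F17 (106 to 135), as in 0.174% of all genes. In wild type cth-1 was 1 of 7 genes called in the list of glutathione synthesis and cysteine supply, where 0.928% of all genes were called in either direction. At an unadjusted p under 0.05 there were 3 of these 7, against 7.6% of all genes. The list holds gcs-1, the rate-limiting enzyme of glutathione synthesis, at -0.28 in wild type (adjusted p = 0.598). The more abundant cth-2, of the same list, had 376 ± 93.4 CPM with DMSO and 293 ± 49.4 with F17 in wild type. Its log2 fold change was -0.36 there (adjusted p = 0.752 by edgeR) and -0.03 in nhr-131, and it was not called. In wild type edgeR called 0 of 5 other glutathione transferases and 0 of 12 genes of glutathione reduction and glutathione-dependent enzymes. It also called 0 of 9 conjugate exporters and 0 of 6 SKN-1 pathway regulators. These 4 lists had 1, 0, 3 and 0 genes at an unadjusted p under 0.05, against the same shares of all genes. The 3 exporters were mrp-3 at 1.52 (SE 0.39, adjusted p = 0.0927 by edgeR), mrp-2 at 0.56 and mrp-1 at -0.27. For mrp-3 the F17 libraries (111 to 321 CPM) all lay above the DMSO libraries (35.3 to 108), as in 1.45% of all genes. In nhr-131 its treatments overlapped, and it was at 0.64 and not called. The medians of these 4 lists in wild type were 0.12, 0.03, 0.02 and -0.13, and skn-1 itself was at -0.06 (adjusted p = 0.954).

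The 12 members that did not pass the filter were gst-1, gst-2, gst-14, gst-15, gst-17, gst-18, gst-25, gst-30, gst-31, gst-32, gst-34 and gst-37. They had 7 to 143 counts each over the 20 libraries and 598 in all. The exon overlap of gst-17 with gst-18 applies to the counts of both. gst-1, a pi-class enzyme, had 13 counts in 8 libraries. Tested without a filter, 0 of the 12 were called by edgeR in any comparison, with 1 or 2 at an unadjusted p under 0.05 in each.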

How the data were processed

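Counts per gene were deposited by the authors for 20 libraries, with no normalization, made with TopHat2 and HTSeq per the submitters' processing notes. Their versions, the build and the annotation: not given in the sources used here. Poly(A) RNA was made into directional libraries, per the labels' protocols. Analysis used R 4.3.3 with limma 3.58.1 and edgeR 4.0.16, whose filterByExpr, given the groups and a minimum count of 10, kept 13795 genes. Libraries were scaled by TMM, and a robust quasi-likelihood model with 4 group means (16 residual degrees of freedom) was fitted to all 20 libraries. The 6 contrasts were adjusted by Benjamini-Hochberg over all tested genes and called at 0.05. Standard errors are the absolute log2 fold change over the root of F. CPM use TMM-scaled sizes, and log2 CPM a prior count of 2. Intervals cover 95%.

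The 6 libraries lie beyond the largest gap in the first component of within-group deviations, 53.9% of that variation. No library was a copy of another of its group (lowest chi-square per degree of freedom 21.5), and libraries of different groups were not compared so. The members and the gene lists were chosen with earlier results of these data known. Named with full values were members called in a contrast or at an unadjusted p under 0.05, the 8 most abundant per kb, and gst-1, gst-4, gst-10 and gst-42; of each list, the called genes. gcs-1, cth-2, skn-1, mrp-1, mrp-2 and mrp-3 were named after their values were seen. The procedure was tested on simulated counts. Alternatives were other scalings and filters, DESeq2 1.42.0, limma-voom, the compared groups alone, the age score as covariate, leaving out each library or the 6, and the column letter as a block. The p-values reflect how these libraries spread.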

Additional observations from a re-analysis of the deposited data

Results flagged for a closer look

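Among 64 groups of 5 libraries (16 genes in 4 groups), 5 had 1 library far from the other 4, where chance gives about 1 in 20. In nhr-131 with F17, library c had 5.52 CPM of gst-22 (nearest 8.53), 64.7 of gst-27 (nearest 127) and 37.4 of gst-42 (nearest 99.7). In nhr-131 with DMSO, library c had 50.5 CPM of gst-42 (nearest 99.8). Both are among the 6 libraries that stood apart. cth-1 was at 235 CPM in library a of nhr-131 with DMSO, against 177 in the nearest.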

How the results depend on the processing

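The count of gst genes called in wild type was 1, and became 3 with the age score as covariate and 5 without the 6 libraries. In nhr-131 it was 1, and 2 in DESeq2 and limma-voom and 3 with the age score, with 1 to 2 on leaving out a library. Between genotypes with F17 it was 0, and 1 in limma-voom and with the compared groups alone, and 4 without the 6 libraries. For the mean effect it was 1, and 3 in DESeq2, 5 with the age score, 5 without the 6 libraries and 1 to 2 on leaving out a library. It was 2 there without library b of nhr-131 with DMSO, where gst-44 was called (1.77, adjusted p = 0.0324). In the difference of effects and between genotypes with DMSO it was 0 in every alternative. The causes were not tested.

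Small F17 effects in nhr-131 changed sign: gst-26 was 0.0010 with no filter, gst-42 -0.33, gst-10 -0.47 and gst-36 -0.071 with the age score, and gst-13 0.012 without the 6 libraries. On leaving out a library they ran from -0.29 to 0.010 for gst-27, -0.16 to 0.14 for gst-26, -0.087 to 0.28 for gst-42, -0.31 to 0.19 for gst-13 and -0.14 to 0.28 for gst-10.

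With the letter as a replicate block the counts of gst genes were 1 in wild type, 1 in nhr-131, 1 for the mean effect and 0 in the others, and 20 of all genes, against 34, were called in the difference of effects. Same-letter libraries correlated between -0.68 and 0.82, and 7 of 20 correlated best with their own letter. The highest values, 0.68, 0.80 and 0.82, were among libraries c of DMSO-treated wild type and both nhr-131 groups, which all stood apart. Library c of F17-treated wild type correlated negatively with each of these, from -0.68 to -0.53. The letters were not taken as pairs in the main fit, and whether same-letter libraries share a source of variation was not tested.

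Over all genes, wild type had 128 calls (DESeq2 197, age score 238, without the 6 libraries 906), nhr-131 had 66 (140), the difference 34 (DESeq2 52, without the 6 libraries 116, leaving out a library 19 to 31), DMSO 4 (11 and 11), F17 177 (DESeq2 537, compared groups 107, age score 328, without the 6 libraries 1019, leaving out a library 83 to 449) and the mean effect 142 (age score 288, without the 6 libraries 496). The 12 untested genes held few counts, and what difference could be detected in them was not tested.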
